A study of Mus musculus with 6 samples.

Results

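The transcripts of 10 SOX transcription factors, of 54532 genes in the count table, were followed in primary myoblasts: Sox4, Sox11 and Sox12 of the SOXC group, Sox7, Sox17 and Sox18 of the SOXF group, Sox8 and Sox9 of the SOXE group, and Sox5 and Sox6 of the SOXD group. The members were taken by gene symbol, with the difference between the genotypes already known for them. This difference is therefore described for each member without a p-value, and calls of members are description too. All 10 had reads in every library and passed the filter on low counts.

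SOX proteins bind DNA through a shared HMG box, a domain related to that of the sex-determining factor SRY, and bend the helix where they bind. The groups are defined by the sequence of this box and by the domains around it: SOXC factors are known from immature and progenitor cells, SOXF factors from blood vessel endothelium, SOXE factors from neural crest, glia and cartilage, and SOXD factors, which have no activation domain of their own, as partners of other factors. In muscle, SOX8 and SOX9 are known from satellite cells, the stem cells of the tissue, and SOX6 as a repressor of slow fibre genes.

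The libraries were RNA-seq of hind-limb cells of 3-week-old mice, cultured with FGF at 10 ug/ml and collected at day 2, with 3 libraries labelled WT and 3 labelled eIF5A-KO. eIF5A is a translation factor that carries the amino acid hypusine. In the study's knockout, a tamoxifen-induced Cre under the Pax7 locus deletes floxed eIF5A. Cells that neither had Pax7 at induction nor descend from cells that had it keep the gene. The cells for the libraries were released by enzymes and strained, with no sort named for this assay. The study describes its control genotype in more than one way, the labels give only WT, and no source used here says that the libraries came from separate animals, so that p-values measure the spread between these libraries.

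Total counts ranged from 16281216 to 17734551 per library. The targeted gene, Eif5a, was at 1600, 985 and 1237 CPM (counts scaled to a common library size) in WT and at 1363, 1457 and 1058 CPM in those labelled eIF5A-KO, with a fitted log2 ratio of 0.02 (95% interval -0.51 to 0.55, adjusted p = 0.993 by edgeR). The transcript level therefore did not separate the labels. Counts per gene do not show which exons the reads came from, so that this level is no check of the deletion, and the groups are called by their labels throughout. WT replicate 1 stood apart: mitochondrial transcripts took 5.75% of its counts against 2.11 to 3.5% in the other libraries, and it was the lowest of the WT libraries for 10 of 10 SOX members, against 40.4% of the 14679 genes tested. All 8 myogenic markers passed the filter, and their summed level was 699 to 1800 CPM in WT and 626 to 1192 CPM in libraries labelled eIF5A-KO. Markers of endothelial cells (8 of 8 tested), mural cells (9 of 9), fibroblasts (7 of 7), Schwann cells (7 of 8), tendon cells (5 of 5) and macrophages (7 of 8) were present too, and none of these lists held a gene at 0 in every library. In such a mixture, fewer cells of a type and less RNA per cell cannot be told apart.

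The SOX transcripts went different ways. Sox11 and Sox8 were lower in libraries labelled eIF5A-KO, to 0.234 of the WT mean for Sox11, with no overlap between the groups. Sox5 was higher with no overlap, and the other 7 members overlapped. In the fit across all genes 6 members had a positive and 4 a negative log2 fold change, with a median of 0.11, and the median over all tested genes was -0.01 with 51.7% of them negative. Of the tested genes, 6.83% had all libraries labelled eIF5A-KO below all WT libraries in CPM and 5.68% had them above. At an adjusted p under 0.05, edgeR called 0 of the 10 members, as it called 0.0204% of all genes, and 6.76% had an unadjusted p under 0.05. DESeq2, which called 0.479% of its genes, called Sox11 and Sox8, as did edgeR without the filter on low counts (0.924% of genes called) and edgeR without WT replicate 1 (0.372%), whereas limma-voom called no member. Because the members were picked with this contrast in view, these calls are given as a description.

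**Figure D1:**
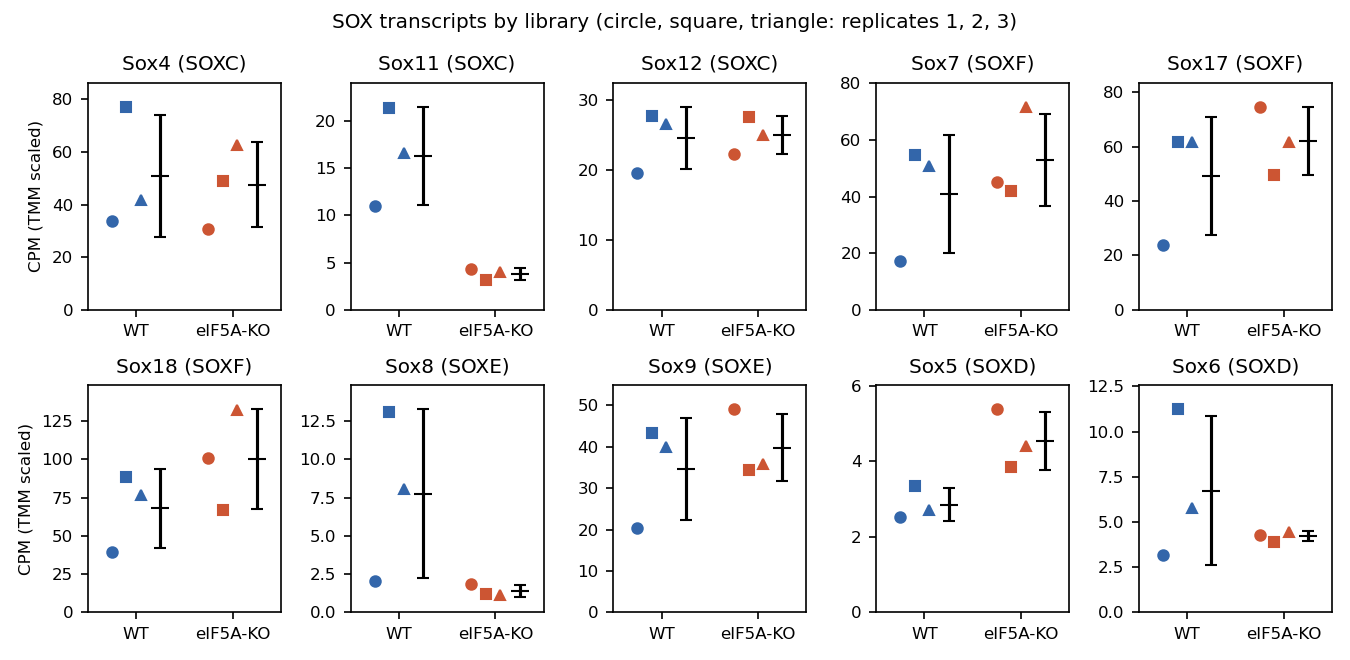
Level of each SOX transcript in CPM (linear axis from 0, scale differing by panel) in 3 WT (blue) and 3 eIF5A-KO (red) libraries. Circles, squares and triangles are replicates 1, 2 and 3, and the bar beside them is the mean with the SD. Sox11 and Sox8 lie lower in all red points than in any blue point, Sox5 lies higher, and the lowest blue point is the circle in every panel.

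The SOXC group held 1 member that separated the groups and 2 that did not. Sox11, a factor of neural and mesenchymal progenitors, had 170, 402 and 281 reads in WT and 70, 53 and 71 in libraries labelled eIF5A-KO. In CPM it was at 10.97, 21.29 and 16.57 in WT and at 4.28, 3.13 and 4.02 in libraries labelled eIF5A-KO. The lowest WT library was thus 2.57-fold above the highest of the other group, and WT replicate 2 was the highest of all. The means were 16.28 ± 5.17 and 3.81 ± 0.60 CPM (SD, n = 3 each), a 4.27-fold difference and a log2 fold change of -2.06 (SE 0.29). Without WT replicate 1 it was -2.27, and without WT replicate 2 it was -1.82.

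Sox4, the SOXC factor that shares most of its HMG box with SOX11 and is known from immune, endocrine and mesenchymal progenitors, was at 33.69, 77.06 and 41.58 CPM in WT and at 30.55, 49.07 and 62.72 CPM in libraries labelled eIF5A-KO. The groups overlapped between 33.69 and 62.72 CPM, with WT replicate 2 above this stretch and eIF5A-KO replicate 1 below it. The log2 fold change was -0.10 (SE 0.34), and it turned to 0.33 without WT replicate 2 and to 0.15 without eIF5A-KO replicate 1, so that no direction can be given. Sox12, the SOXC member with the weakest known effects when lost alone, was at 19.49, 27.65 and 26.54 CPM in WT and at 22.3, 27.61 and 24.97 CPM in the other group. It had means of 24.56 ± 4.42 and 24.96 ± 2.65 CPM (SD, n = 3 each) and a log2 fold change of 0.02 (SE 0.20), which took a negative sign when the libraries were scaled by their totals alone (-0.02) or when WT replicate 1 (-0.11) or eIF5A-KO replicate 2 (-0.05) was left out.

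Sox11 also differed as a share of its own group. Because Sox4 and Sox12 did not separate the groups, this share largely restates the difference of Sox11 itself. As a percentage of the summed length-scaled level (FPKM, which divides the counts by gene length and library depth) of Sox4, Sox11 and Sox12, Sox11 was 10.4, 10.3 and 12 in WT and 4.33, 2.24 and 2.52 in libraries labelled eIF5A-KO. This ratio is taken within a library and does not depend on how libraries are scaled to each other. WT replicate 1, which stood apart in level, lay with the other WT libraries in this share. The group as a whole, summed in CPM, was at 64.15, 126 and 84.7 in WT and at 57.13, 79.82 and 91.71 in libraries labelled eIF5A-KO, and overlapped.

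Sox11 and Sox4 are each a single exon on the minus strand of the files' mm10 (GRCm38) coordinates, Sox11 at chr12:27334264-27342574 and Sox4 at chr13:28948919-28953713. Their closest stretch, which lies in the coding sequence and holds codons of the HMG box and beside it, is shown because the counts of these near relatives went apart. It aligned over 259 bases of the annotated transcripts, 229 of them identical (88.4%), with a longest identical run of 48 bases, and capitals mark the 30 bases that differ. Both are read 5′ to 3′ on the coding strand, at chr12:27342040-27342298 for Sox11 and at chr13:28952623-28952881 for Sox4.
Sox11: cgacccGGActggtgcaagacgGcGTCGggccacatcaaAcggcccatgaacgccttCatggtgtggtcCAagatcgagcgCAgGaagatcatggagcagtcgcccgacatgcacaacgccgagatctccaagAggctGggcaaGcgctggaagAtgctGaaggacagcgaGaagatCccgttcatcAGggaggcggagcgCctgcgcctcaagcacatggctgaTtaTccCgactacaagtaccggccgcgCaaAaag
Sox4: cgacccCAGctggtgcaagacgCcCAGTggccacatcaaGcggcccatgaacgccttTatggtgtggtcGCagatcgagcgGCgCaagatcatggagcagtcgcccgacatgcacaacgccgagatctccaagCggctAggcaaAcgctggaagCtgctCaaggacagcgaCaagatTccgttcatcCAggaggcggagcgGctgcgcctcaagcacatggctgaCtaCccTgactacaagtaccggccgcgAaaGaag

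No SOX member matched the transcript of another SOX factor for 200 bases or longer at an identity of 90% or above. Sox5 shares 1333 bases with Sox5os1, and Sox17 shares 804 bases with Gm37587, both genes with 0 reads in every library. How the authors' counting treated reads that fit several genes is not given in the sources used here. Sox11 had no overlapping gene in GENCODE. Sox4 overlaps Gm26735 on the other strand, a gene with at most 2 reads in a library.

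The SOXF group is the endothelial branch of the family, and each of its 3 transcripts overlapped between the groups. Sox18, a factor of vascular and lymphatic endothelium, was at 39.18, 88.29 and 76.5 CPM in WT and at 100.9, 67.05 and 132.1 CPM in libraries labelled eIF5A-KO. Of the latter, 2 lay above every WT library and 1 among them. The log2 fold change was 0.56 (SE 0.33), or 0.29 without WT replicate 1, 0.31 without eIF5A-KO replicate 3 and 0.79 without WT replicate 2.

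Sox17, which acts in arterial endothelium and in endoderm, was at 24.01, 61.54 and 61.64 CPM in WT and at 74.6, 49.73 and 61.54 CPM in the other group, and it is the member for which WT replicate 3, not 2, was the highest WT library. Its log2 fold change was 0.33 (SE 0.33) with all libraries and 0.02 without WT replicate 1. Sox7, the third SOXF factor, was at 17.1, 54.82 and 50.9 CPM in WT and at 45.15, 41.86 and 71.67 CPM in libraries labelled eIF5A-KO. Its log2 fold change of 0.37 (SE 0.39) became 0.01 without WT replicate 1. For both genes, the positive value was thus not kept at its size without that library, and the libraries of the groups overlapped. Other libraries moved the values too. Sox7 was at 0.09 without eIF5A-KO replicate 3 and at 0.64 without WT replicate 2. Sox17 was at 0.19 without eIF5A-KO replicate 1 and at 0.53 without WT replicate 3.

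Endothelial markers were read beside the SOXF transcripts. Their summed level was 1316, 2591 and 2381 CPM in WT and 2672, 2201 and 3284 CPM in libraries labelled eIF5A-KO, with all 8 markers fitted higher, a median log2 fold change of 0.38 (0.185 without WT replicate 1) and none called by edgeR, DESeq2 or limma-voom (1 at an unadjusted p under 0.05). WT replicate 1 was the lowest library in this sum as in the SOXF genes. Set against it, the 3 SOXF transcripts together were at 6.1, 7.9 and 7.94 CPM per 100 CPM of endothelial markers in WT and at 8.26, 7.21 and 8.08 in libraries labelled eIF5A-KO. The groups overlapped in this ratio, at 7.31 ± 1.05 and 7.85 ± 0.56 (SD, n = 3 each).

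The ratio was also read for each gene. Sox18 was at 2.98, 3.41 and 3.21 CPM per 100 CPM of endothelial markers in WT and at 3.78, 3.05 and 4.02 in the other group. Sox7 was at 1.3, 2.12 and 2.14 against 1.69, 1.9 and 2.18, and Sox17 at 1.82, 2.37 and 2.59 against 2.79, 2.26 and 1.87. All 3 overlapped. The part of endothelial cell content in the SOXF levels was not tested further.

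The SOXE group split. Sox8, a factor of satellite cells, glia and neural crest, was at 2.06, 13.08 and 8.08 CPM in WT and at 1.83, 1.18 and 1.13 CPM in libraries labelled eIF5A-KO. These levels rest on 32, 247 and 137 reads in WT and on 30, 20 and 20 in the other group. WT replicate 1 lay just above the libraries labelled eIF5A-KO, by 1.13-fold over the highest of them, and the other WT libraries lay well above. The means were 7.74 ± 5.52 and 1.38 ± 0.39 CPM (SD, n = 3 each), a 5.6-fold difference with a log2 fold change of -2.40 (SE 0.59), the widest error of the 10 members. It was -2.83 without WT replicate 1 and -1.80 without WT replicate 2.

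Sox9, a factor of cartilage, tendon progenitors and glia, was at 20.46, 43.27 and 39.93 CPM in WT and at 49, 34.41 and 35.78 CPM in libraries labelled eIF5A-KO. The groups overlapped, and the log2 fold change of 0.20 (SE 0.28) fell to -0.06 without WT replicate 1. In FPKM, Sox8 was at 13.4, 40.1 and 26.8% of Sox9 in WT and at 4.96, 4.56 and 4.2% in libraries labelled eIF5A-KO. These shares did not overlap, and the libraries labelled eIF5A-KO lay within a narrow band, at 4.57 ± 0.38% against 26.8 ± 13.4% in WT (SD, n = 3 each). As Sox9 overlapped between the groups, this share largely restates the difference of Sox8.

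Schwann cell markers, read beside the SOXE genes because glia express both, summed to 185.9, 252.9 and 251.8 CPM in WT and to 322.9, 282.6 and 312.5 CPM in libraries labelled eIF5A-KO, with no overlap. Of the 7 tested, all were fitted higher (median log2 fold change 0.32, or 0.132 without WT replicate 1 and 0.195 without eIF5A-KO replicate 3), 2 had an unadjusted p under 0.05, and none was called by edgeR, DESeq2 or limma-voom. Ngfr, a neurotrophin receptor, was fitted at a log2 fold change of 0.42 (adjusted p = 0.69). Foxd3, a neural crest factor, had 0.41 (adjusted p = 0.881), and S100b, a calcium-binding protein of glia, 0.33 (adjusted p = 0.917). Sox9 per 100 CPM of these markers was at 11, 17.1 and 15.9 in WT and at 15.2, 12.2 and 11.4 in libraries labelled eIF5A-KO, and overlapped. In the libraries labelled eIF5A-KO, Sox8 was thus below and the sum of glial markers above the WT libraries. The part of glial cell content in the SOXE levels was not tested.

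The SOXD group was the least abundant. Sox5, known as a partner of SOX9 in cartilage, had 39, 63 and 46 reads in WT and 88, 65 and 78 in libraries labelled eIF5A-KO. In CPM it was at 2.52, 3.34 and 2.71 in WT and at 5.38, 3.84 and 4.42 in the other group. The lowest library labelled eIF5A-KO was 1.15-fold above the highest WT library. The means were 2.86 ± 0.43 and 4.54 ± 0.78 CPM (SD, n = 3 each), and the log2 fold change was 0.65 (SE 0.28), between 0.52 and 0.77 when each library was left out in turn.

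Sox6, the SOXD factor that represses slow fibre genes in muscle, was at 3.16, 11.23 and 5.78 CPM in WT and at 4.28, 3.9 and 4.47 CPM in libraries labelled eIF5A-KO. The WT libraries bracketed the others. A log2 fold change of -0.66 (SE 0.41) became -0.08 without WT replicate 2 and -0.99 without WT replicate 1, so that WT replicate 2 carried most of it. Sox5 over Sox6, in FPKM, was at 0.821, 0.307 and 0.484 in WT and at 1.3, 1.02 and 1.02 in libraries labelled eIF5A-KO, with no overlap. This ratio holds the difference of Sox5, which did not overlap by itself, and is no separate result. Both genes are long and overlapped by other genes in GENCODE, 7 for Sox5 and 2 for Sox6, none with more than 3 reads in a library.

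**Figure D2:**
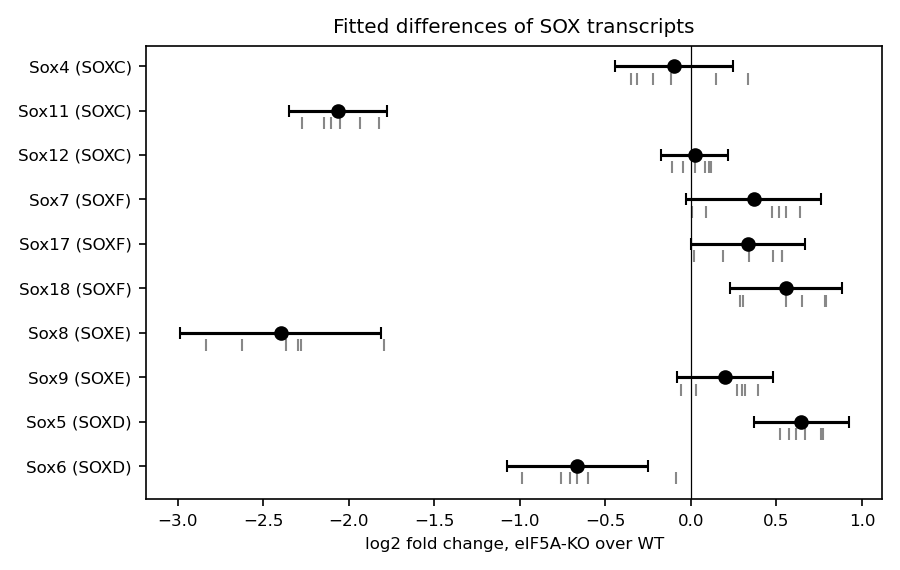
Fitted log2 fold change of each SOX transcript, eIF5A-KO over WT (edgeR, 3 libraries each): points with bars are the estimate and its standard error, and the ticks beneath are the estimates with each of the 6 libraries left out in turn. Sox11 and Sox8 lie below 0 in every tick, with the highest at -1.80 for Sox8, Sox5 lies above 0, and the ticks of Sox4, Sox12 and Sox9 lie on both sides of 0.

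Spread between WT libraries differed widely among the members. The coefficient of variation in CPM over the WT libraries was largest for Sox8 (71.2%) and Sox6 (61.2%) and smallest for Sox5 (15%) and Sox12 (18%). In libraries labelled eIF5A-KO it was largest for Sox4 (34%) and smallest for Sox6 (6.87%). WT replicate 2 was above WT replicate 1 by 6.33-fold in Sox8 and 3.55-fold in Sox6, and by only 1.33-fold in Sox5. For both Sox6 and Sox8, the WT libraries were thus spread more widely than those labelled eIF5A-KO.

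Per length, the members covered a wide range. In WT, Sox18 stood first at 41.6 ± 15.8 FPKM, above Sox7 (12.3 ± 6.25), Sox4 (10.5 ± 4.78), Sox17 (10.2 ± 4.53), Sox9 (8.28 ± 2.97) and Sox12 (5.46 ± 1.00). Below them came Sox8 at 2.46 ± 1.75 FPKM, Sox11 at 1.94 ± 0.62, Sox6 at 0.45 ± 0.28 and Sox5 at 0.20 ± 0.03 (SD, n = 3 throughout). Neighbours in this order had overlapping WT libraries, except Sox18 above Sox7, Sox12 above Sox8 and Sox11 above Sox6.

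In libraries labelled eIF5A-KO, the order of the first 6 was the same but for Sox17 (12.9 ± 2.57 FPKM) and Sox4 (9.85 ± 3.37), which changed places. Sox11 was at 0.46 ± 0.07 FPKM and Sox8 at 0.44 ± 0.12, beside Sox5 at 0.31 ± 0.05 and Sox6 at 0.28 ± 0.02 (SD, n = 3 throughout). The step below Sox12, at 5.58 ± 0.60 FPKM, was thus wider than in WT.

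**Figure D3:**
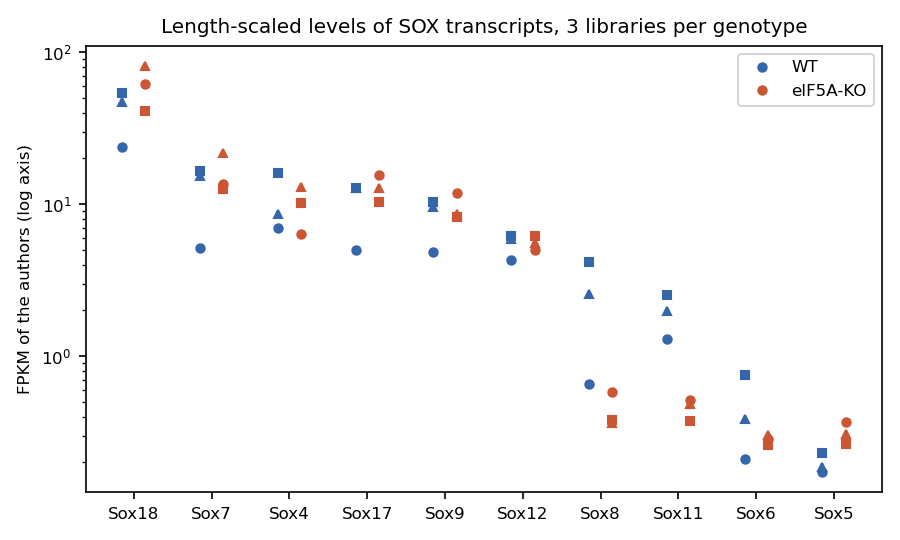
Length-scaled level (authors' FPKM, log axis) of the 10 SOX transcripts in 3 WT (blue) and 3 eIF5A-KO (red) libraries, in the order of the WT means; circles, squares and triangles are replicates 1, 2 and 3. Sox18 is above all others in WT, and the red points of Sox8 and Sox11 are near those of Sox6 and Sox5.

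Myogenic markers were read beside Sox11 and Sox8. Of the 8, 7 were fitted lower in libraries labelled eIF5A-KO (median log2 fold change -0.49, or -0.12 without WT replicate 2, -0.31 without eIF5A-KO replicate 3 and -0.78 without WT replicate 1), 3 had an unadjusted p under 0.05, and edgeR and limma-voom called none while DESeq2 called Chrna1. Without WT replicate 1, or without the filter on low counts, edgeR called Myog, Chrna1 and Pax7. Myog, which drives terminal differentiation, was fitted at a log2 fold change of -2.91 (adjusted p = 0.362 by edgeR) and Chrna1, a subunit of the acetylcholine receptor, -1.62 (adjusted p = 0.396). Pax7, the satellite cell factor whose locus drives the Cre, had -1.49 (adjusted p = 0.484), and Myod1, the myoblast determination factor, -0.61 (adjusted p = 0.794). By library, the sum of the 8 was at 698.9, 1800 and 1252 CPM in WT and at 1192, 848.6 and 626.2 CPM in libraries labelled eIF5A-KO, and overlapped.

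Set against this sum, Sox11 was at 1.57, 1.18 and 1.32 CPM per 100 CPM of myogenic markers in WT and at 0.359, 0.369 and 0.642 in libraries labelled eIF5A-KO. The groups did not overlap, with means of 1.36 ± 0.196 and 0.457 ± 0.16 (SD, n = 3 each), 2.98-fold apart. Sox8 was at 0.296, 0.727 and 0.645 against 0.154, 0.139 and 0.181, also without overlap and 3.52-fold apart. Sox6 was at 0.453, 0.624 and 0.462 against 0.359, 0.46 and 0.714 and overlapped. The markers in the sum did not move alike. Its largest parts, Myod1, Des and Itga7, were at 0.654, 0.985 and 0.808 of the WT mean in libraries labelled eIF5A-KO. Myf5 and Cdh15 were at 1.09 and 0.78. Pax7, Chrna1 and Myog were at 0.355, 0.325 and 0.131, beside 0.234 for Sox11 and 0.179 for Sox8. These ratios thus depend on which markers are summed. The part of myogenic cell content in them was not tested, and Sox11 and Sox8 were chosen with their difference known.

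**Figure D4:**
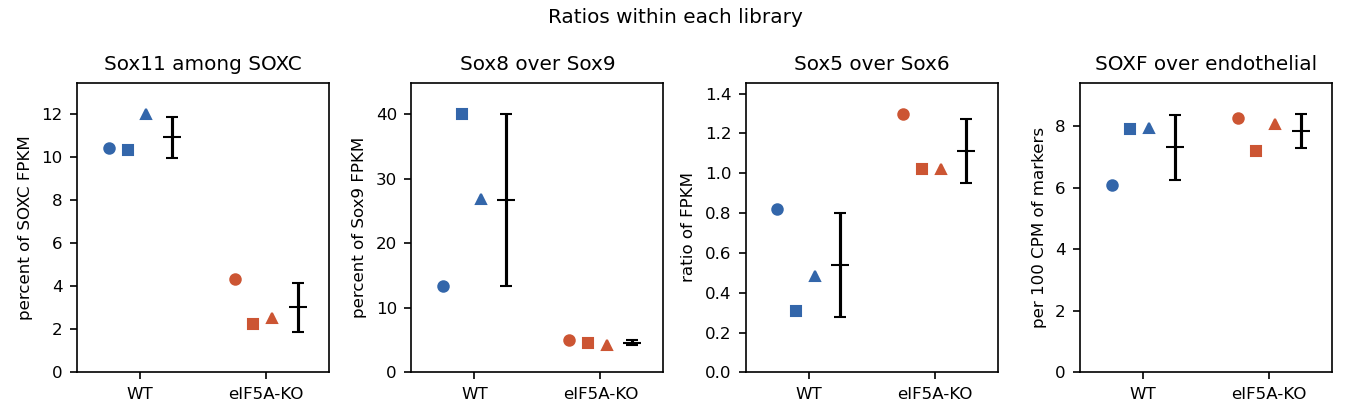
Ratios taken within each library for 3 WT (blue) and 3 eIF5A-KO (red) libraries, with mean and SD beside them (linear axes from 0): Sox11 as percent of summed SOXC FPKM, Sox8 as percent of Sox9 FPKM, Sox5 over Sox6 FPKM, and summed SOXF CPM per 100 CPM of endothelial markers. The first 3 show no overlap between the groups, and the last does. Each of the first 3 holds a member that did not overlap by itself.

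Across the 6 libraries, the 5 genes outside the SOX members whose log2(CPM + 1) was most like that of Sox11 were Rbm24, an RNA-binding protein of muscle splicing (Pearson r = 0.993), Lmnb2, a lamin of the nuclear envelope (0.983), E2f2, a cell cycle factor (0.982), Mief1, a mitochondrial fission protein (0.981), and Id2, an inhibitor of bHLH factors (0.98), of 11028 candidates with a mean of at least 5 CPM. These points share libraries and fall into the 2 genotypes, so that r holds the difference between genotypes as well as the spread within them. With each genotype's mean taken out, r was 0.934 for Rbm24, 0.912 for Lmnb2, 0.85 for E2f2, 0.802 for Mief1 and 0.774 for Id2. Rbm24 was at 11.88, 35.59 and 18.4 CPM in WT and at 3.24, 2.25 and 2.32 CPM in libraries labelled eIF5A-KO. Mief1, by contrast, differed little in size, at 36.2 ± 0.867 and 33 ± 0.453 CPM (SD, n = 3 each).

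Among the members, Sox8 was most like Sox11 (r = 0.918, or 0.947 within genotypes), then Sox6 (0.662, or 0.937). Sox5 was the least like it over all 6 libraries (-0.715), yet at 0.796 within genotypes. Sox4 and Sox12, of the same group as Sox11, were at 0.233 and 0.089, and at 0.556 and 0.601 within genotypes. The SOXF genes were at -0.132 (Sox7), -0.144 (Sox17) and -0.286 (Sox18) over all 6 libraries and between 0.866 and 0.929 within genotypes, and Sox9 at -0.046 and 0.92. WT replicate 1 was low in every member, which all the values within genotypes share.

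Sox11 and Sox8, the members that were lower in every library labelled eIF5A-KO, were set side by side at their promoters. RefSeq windows of 300 bases on GRCm38.p6, 250 before and 50 after an annotated start, matched 6 of the 10 members. Both windows were searched on both strands, and capitals mark E-boxes (CANNTG, the motif of bHLH factors such as MyoD) and CCAAT boxes (CCAAT, which may read as its reverse complement). The 250 bases before the start are printed, 5′ to 3′ on the minus strand, chr12:27342719-27342968 for Sox11 and chr17:25570687-25570936 for Sox8.
Sox11: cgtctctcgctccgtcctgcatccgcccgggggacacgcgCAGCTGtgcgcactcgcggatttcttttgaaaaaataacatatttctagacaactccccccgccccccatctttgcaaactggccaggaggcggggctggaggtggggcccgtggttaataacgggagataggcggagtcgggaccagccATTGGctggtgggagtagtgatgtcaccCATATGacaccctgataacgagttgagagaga
Sox8: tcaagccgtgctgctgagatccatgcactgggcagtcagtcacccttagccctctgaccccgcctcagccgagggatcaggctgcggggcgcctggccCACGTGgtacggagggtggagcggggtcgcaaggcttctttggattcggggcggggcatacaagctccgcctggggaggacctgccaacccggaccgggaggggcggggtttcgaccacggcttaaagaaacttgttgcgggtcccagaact

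The Sox11 window held 2 E-boxes and 1 CCAAT box, and the Sox8 window 1 E-box and no CCAAT box. Of 32851 promoter windows of the same length, 72.3% held an E-box and 37.4% a CCAAT box, so that neither sets these genes apart. The SOX motifs ACAAAG and AACAAT, found in 18.7% and 10.7% of windows, and TATAAA, found in 13.6%, had no match in either. A match is a run of letters and not a bound site. Sox8 lies at chr17:25565892-25570686, and in GENCODE the gene 2810468N07Rik on the other side of its start shares 329 transcript bases with it. That gene had 64, 64 and 41 reads in WT and 55, 57 and 19 in libraries labelled eIF5A-KO, more than Sox8 in every library of the latter group but the third, and the strand used in counting is not given in the sources used here.

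Of 9 other SOX genes, 3 passed the filter, and none was called by edgeR, DESeq2 or limma-voom. Sox2, a stem cell factor also known from glia, was at 13.5 ± 1.18 CPM in WT and 19.8 ± 3.78 CPM in libraries labelled eIF5A-KO (SD, n = 3 each), a log2 fold change of 0.55 with an unadjusted p of 0.0229 and an adjusted p of 0.611 by edgeR. Sox10, the third SOXE gene and the main SOX factor of Schwann cells, was at 28.59, 67.79 and 62.82 CPM in WT and at 69.65, 71.31 and 72.58 CPM in the other group (adjusted p = 0.877). Sox13, the third SOXD gene, was fitted at a log2 fold change of 0.36 (adjusted p = 0.936). Sox10 did not share the low level of Sox8 in libraries labelled eIF5A-KO.

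Genes known to be linked to SOXC factors were read next. Of 7, 4 were tested, 1 fitted higher and 3 lower with a median log2 fold change of -0.38, and none was called by edgeR, DESeq2 or limma-voom. The median was -0.074 with no filter and -0.051 with DESeq2, which fit 6 of the genes. Ezh2, the methyltransferase of Polycomb complex PRC2, was at 45 ± 4.66 CPM in WT and 30.6 ± 1.6 CPM in libraries labelled eIF5A-KO (SD, n = 3 each), and Map2, a microtubule-associated protein, at 9.65 ± 3.38 and 5.34 ± 0.93 CPM. Neither group pair overlapped, and both had an unadjusted p under 0.05 (0.00817 and 0.0166) with an adjusted p of 0.495 and 0.56 by edgeR. Tead2, a partner of YAP, was fitted at a log2 fold change of -0.20 (adjusted p = 0.917) and Tubb3, a neuronal tubulin, 0.11 (adjusted p = 0.974).

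Of 13 genes linked to SOXF factors, all were tested, 10 were fitted higher and 3 lower with a median of 0.30, and none was called by any of the 3 tools or had an unadjusted p under 0.05 by edgeR. The list shares Cdh5, Kdr, Tie1 and Tek with the endothelial markers. Vcam1, an adhesion molecule, was fitted at a log2 fold change of -0.53 (adjusted p = 0.791), against 0.48 for the VEGF receptor gene Kdr (adjusted p = 0.862), 0.55 for the receptor gene Tie1 (adjusted p = 0.863) and 0.51 for the tight junction gene Cldn5 (adjusted p = 0.876). Without WT replicate 1 the list's median was 0.025, without eIF5A-KO replicate 3 it was 0.051 and without WT replicate 2 it was 0.665.

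Of 12 cartilage genes that SOX9 drives with SOX5 and SOX6, 4 were tested, and all 4 were fitted higher (median 0.36, but 0.024 without eIF5A-KO replicate 3 and 0.034 without WT replicate 1), with none called by edgeR, DESeq2 or limma-voom and none at an unadjusted p under 0.05. Their levels were low: the collagen genes Col11a1, Col9a3, Col11a2 and Col2a1 had means from 0.757 to 2.16 CPM in WT and from 0.841 to 3.15 CPM in the other group. Their log2 fold changes were 0.53, 0.44, 0.27 and 0.11, with adjusted p from 0.884 to 0.986 by edgeR. Of 10 slow muscle genes that SOX6 represses, 9 were tested, 3 fitted higher and 6 lower (median -0.32), with none called by edgeR, DESeq2 or limma-voom, though edgeR without the filter on low counts called Tnnt1. Tnnt1, the slow troponin T, was at 9.26 ± 2.15 CPM in WT and 3.91 ± 2.21 CPM in libraries labelled eIF5A-KO (SD, n = 3 each, unadjusted p = 0.0172, adjusted p = 0.56). Tpm3, a tropomyosin, was fitted at a log2 fold change of 0.31 (adjusted p = 0.823), Tnnc1, a troponin C, -0.42 (adjusted p = 0.917) and Tnni1, the slow troponin I, -0.49 (adjusted p = 0.924). This list's median took the other sign, 0.14, without WT replicate 2, and it was -0.07 without eIF5A-KO replicate 3.

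Of the remaining markers, those of mural cells were all fitted higher (9 of 9, median 0.50, or 0.271 without WT replicate 1 and 0.951 without WT replicate 2, with 4 at an unadjusted p under 0.05) and 1 was called by edgeR and DESeq2 but not by limma-voom, Myh11, the smooth muscle myosin, which rose from 10.6 ± 0.28 to 30.5 ± 3.19 CPM (SD, n = 3 each, adjusted p = 0.0486 by edgeR). In edgeR this call was lost with DESeq2 size factors, with library totals alone, with at least 10 counts in every library and when any 1 library other than WT replicate 1 was left out. Fibroblast markers had 1 fitted higher and 6 lower (median -0.14, but 0.073 without WT replicate 1), tendon markers 2 and 3 (median -0.09, but 0.046 without eIF5A-KO replicate 2), and macrophage markers 5 and 2 (median 0.32, but 0.008 without eIF5A-KO replicate 1 and 0.833 without WT replicate 2), with none called by edgeR, DESeq2 or limma-voom and with 1 of each list at an unadjusted p under 0.05. Without the filter on low counts, edgeR also called the macrophage marker Cd68 and the mural marker Pdgfrb. Sox9, which tendon progenitors also express, stood beside a tendon marker sum of 264 to 343.8 CPM in WT and 279.5 to 351.7 CPM in libraries labelled eIF5A-KO. Scx, the tendon factor, was the tendon marker with the smallest p and was fitted at a log2 fold change of -0.75 (adjusted p = 0.682).

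**Figure D5:**
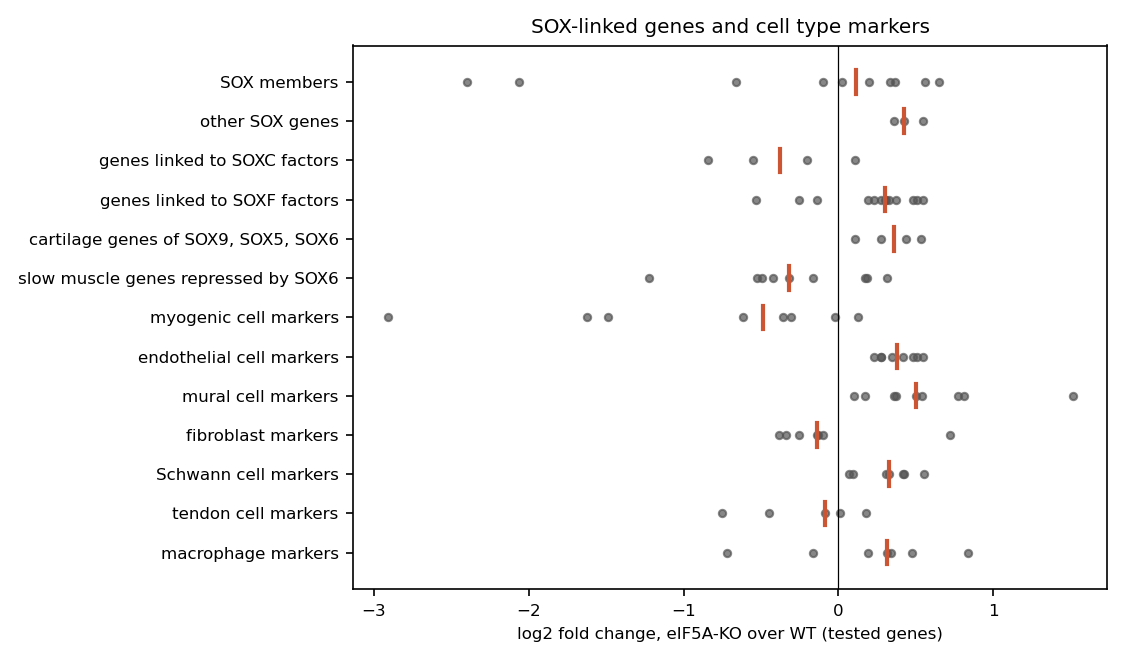
Fitted log2 fold changes, eIF5A-KO over WT, of the tested genes of each list (grey points; red bars are list medians; edgeR, 3 libraries per group). The SOX members spread from -2.40 to 0.65 around a median of 0.11, and the endothelial, mural and Schwann cell markers lie above 0.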

How the data were processed

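RNA-seq counts of 54532 genes in 3 WT and 3 eIF5A-KO libraries were deposited by the authors as reads per gene, without normalization, after mapping to mm10 with HISAT. The methods name DEGSeq2 for read coverage, and the annotation and the strand setting are not given in the sources used here. A second table holds the authors' FPKM, whose denominator per library was checked to be the median-of-ratios size factor times the geometric mean of the total counts. Totals of 16281216 to 17734551 counts per library and 3 libraries per group set the precision, and reads carry no molecular identifiers.

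The counts were fitted in edgeR 4.0.16 (R 4.3.3) with filterByExpr defaults, TMM factors, a prior count of 2 and the quasi-likelihood test, and p-values were adjusted by Benjamini-Hochberg over the 14679 tested genes, with 0.05 as threshold. CPM use the TMM factors. The members and gene lists were chosen with earlier results of these data known. Named genes were the members, Eif5a, genes of each list with the smallest p (up to 4), of which 1 is not reported here, and the 5 genes most like Sox11. Alternatives were DESeq2 1.42.0, limma-voom and limma on log2(FPKM + 1) or log2(FPKM + 0.1) (limma 3.58.1), other scalings and filters, a replicate block, and leaving out each library. Transcripts were aligned with blastn 2.17.0, and promoters came from RefSeq. In simulated counts for this comparison (14679 genes), edgeR called 101 of 114 genes given a log2 change of 2 and 34 of 86 given a change of 1, with 15 unchanged genes called. The simulation drew each gene independently and held no library that stood apart as WT replicate 1 did. It therefore does not give the share of such changes that would be called in these data.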

Additional observations from a re-analysis of the deposited data

How the results depend on the processing

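The sign of the log2 fold change stayed the same under all 15 alternatives for Sox11, Sox8, Sox5, Sox6, Sox7, Sox17 and Sox18, in 14 for Sox9, in 13 for Sox4 and in 12 for Sox12. Leaving out each library in turn gave -2.27 to -1.82 for Sox11, -2.83 to -1.80 for Sox8, 0.52 to 0.77 for Sox5, -0.99 to -0.08 for Sox6, -0.35 to 0.33 for Sox4, -0.11 to 0.12 for Sox12, -0.059 to 0.395 for Sox9 and -0.13 to 0.23 for Eif5a. The ranges were 0.008 to 0.636 for Sox7, 0.016 to 0.534 for Sox17 and 0.287 to 0.79 for Sox18. The kept sign of Sox7 and Sox17 thus says little. The number of members with a negative value was 4, between 3 without WT replicate 2 and 6 without WT replicate 1. On log2(FPKM + 1), which compresses low genes, Sox11 was at -0.99, Sox8 at -1.12 and Sox5 at 0.14. Scaling by library totals alone gave -0.02 for Sox12.

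The count of genes called over the whole table was the least stable value. It was 3, and 0 with DESeq2 size factors in edgeR (993 genes at an unadjusted p under 0.05), library totals alone (967), at least 10 counts in every library (907), limma-voom (961), log2(FPKM + 1) (980) or log2(FPKM + 0.1) (980). It was 84 with DESeq2 and 249 with no filter, and 0 to 56 when each library was left out, 56 being without WT replicate 1. The cause was not tested. The replicate numbers did not pair the libraries: deviations of same-numbered libraries correlated at 0.103, -0.221 and 0.113 across genes, and WT replicate 1 was closest to eIF5A-KO replicate 2 (0.339). A fit with the replicate number as a block called 24 genes, among them Sox11 of the SOX members, Myog of the myogenic markers and Myh11 of the mural markers. The call of Sox11, a member picked with this contrast in view, is again a description.

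Among the lists, leaving out 1 library took the median to the other sign for slow muscle genes (-0.56 to 0.14), fibroblast markers (-0.272 to 0.073) and tendon markers (-0.242 to 0.046), and for the genes linked to SOXC factors the median was -0.07 with no filter and -0.05 with DESeq2. With each library left out in turn, and with no change of sign, the medians ranged from -0.779 to -0.12 for myogenic markers, 0.185 to 0.531 for endothelial, 0.271 to 0.951 for mural, 0.132 to 0.492 for Schwann cell and 0.008 to 0.833 for macrophage markers, 0.132 to 0.638 for other SOX genes, 0.024 to 0.631 for cartilage genes and 0.025 to 0.665 for genes linked to SOXF factors. Sox5, Sox8 and Sox6 rest on few reads per library, between 20 and 247, which limits how small a change can be seen in them. Sox11 too had few reads in the libraries labelled eIF5A-KO, at 70, 53 and 71.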
